A study of Mus musculus with 12 samples.

Results

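Adipocytes are not a cell type of the adrenal cortex, and the gland is embedded in fat. The RNA of 9 genes used chiefly by adipocytes was followed here through the adrenal cortex libraries of 12 mice, to describe how much of this RNA each library held and whether it differed with diet. The genes were given by name: the secreted products *Adipoq*, *Lep*, *Cfd*, and *Retn*, the enzymes *Car3* and *Pck1*, and *Adrb3*, *Ucp1*, and *Cidea*, which are tied to the adrenergic and heat-producing programme of fat. All 9 were found among the 49585 genes counted. The 4 LFD mice (labelled normal diet, replicates 2, 5, 6, and 7) ate food with 10% of its energy from fat for 20 weeks, starting at an age of 6 weeks. The 4 HFD mice ate food with 60% of its energy from fat for the same time. The 4 icosapent ethyl–treated mice ate the HFD for 20 weeks too, with icosapent ethyl, a purified ethyl ester of the omega-3 fatty acid eicosapentaenoic acid, mixed into it for the last 10 weeks. The study describes male wild-type C57BL/6J mice, whereas the labels give the genotype Fads2-/- for all 12, and *Fads2*, which encodes a fatty acid desaturase, was expressed at 455.5 to 2200.0 CPM (counts scaled to a library size of 1000000) in every one of them. Each library was 1 mouse.

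Adiponectin (*Adipoq*), leptin (*Lep*), resistin (*Retn*), and adipsin, or complement factor D (*Cfd*), are made mainly by white adipocytes and released into the blood. In mice, leptin RNA rises with the size of the fat cells and reports fat stores to the brain, and adipsin is known as a protein that falls in several forms of obesity. Brown adipocytes, which are abundant around the mouse kidney and adrenal gland, burn fatty acids for heat through the mitochondrial uncoupling protein UCP1 after noradrenaline has acted on the beta-3 adrenergic receptor (*Adrb3*).

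Libraries held between 34785979 and 67295963 counts on genes. The 9 genes together took 567 to 4965 of these counts per library, or 0.00129% to 0.0121% of the total, so that *Ucp1* in icosapent ethyl replicate 2 rested on 5 counts and *Car3* in HFD replicate 2 on 2890. Values are CPM, counts divided by the library size after scaling with edgeR's trimmed mean of M values. In bulk RNA, fewer adipocytes and less RNA per adipocyte cannot be told apart. The markers of the cortex itself were all present at high levels (7 of 7 in every mouse, among them *Star*, the carrier of cholesterol into mitochondria, with a mean of 20250 CPM). Markers of the chromaffin cells of the medulla were present too and summed to 4853 to 17560 CPM in LFD, 2420 to 7843 CPM in HFD, and 4357 to 8496 CPM in icosapent ethyl–treated mice. The kidney markers *Umod* and *Kap* were at 0 in all libraries, and the 7 kidney markers summed to at most 0.831 CPM.

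The spread between mice fed alike was wide for these genes. Their biological coefficient of variation, fitted over the 12 mice with the group means removed, ran from 46.9% for *Adrb3* to 98.1% for *Ucp1*, against a median of 20.1% over 16262 genes. By this measure, *Adrb3* lay at percentile 93.9 of all genes and *Ucp1* at percentile 99.8. In the LFD group, replicate 2 had the highest *Adipoq*, *Lep*, *Retn*, *Car3*, and *Adrb3*, and replicate 7 had the lowest *Adipoq*, *Retn*, *Cfd*, *Car3*, *Adrb3*, *Ucp1*, and *Cidea*. LFD replicate 7 also had the lowest sum of chromaffin markers in its group, 4853 CPM, whose part in these values was not tested. In HFD versus LFD mice, the log2 fold changes without LFD replicate 2 were 1.14 for *Adipoq*, 1.14 for *Car3*, and -0.61 for *Retn*, and without LFD replicate 7 they were 0.16, 0.30, and -1.59.

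**Figure D1:**
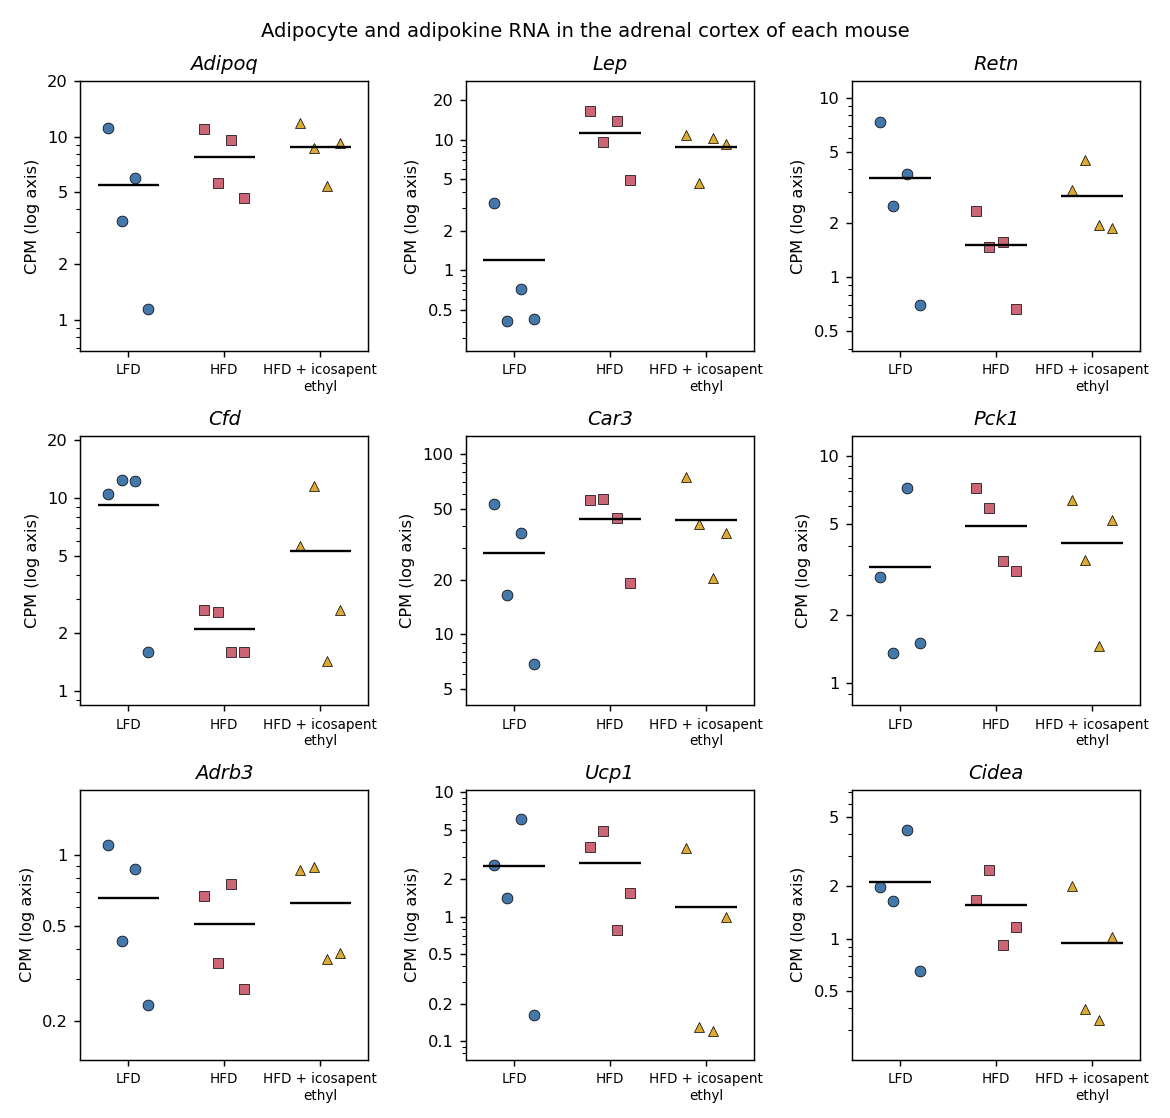
Level of each of the 9 genes in every mouse, in CPM on a log axis with its own range in each panel. Points are mice, in the order of their replicate numbers within a group, and horizontal lines are group means (n = 4). The 4 LFD mice lie below all 8 mice on a HFD for *Lep*, from 0.41 to 3.28 CPM, whereas the groups overlap for the other 8 genes.

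To compare genes with each other, CPM were divided by the length of their exons. Per kilobase, *Car3* had a mean of 15.3 ± 6.05 CPM (SD, n = 4) in HFD mice and *Adipoq* 5.58 ± 2.23 CPM, and *Car3* was above *Adipoq* in all 4 mice of each group. *Cfd* and *Car3* led in LFD mice with 9.95 ± 5.56 and 9.87 ± 7.22 CPM per kilobase, and *Cfd* was the higher of both in 2 of the 4 mice. *Lep* ranked 8 of 9 in LFD mice with 0.36 ± 0.414 CPM per kilobase and 3 of 9 in HFD mice with 3.35 ± 1.52. *Retn* had the opposite order, rank 4 in LFD mice with 2.26 ± 1.77 CPM per kilobase and rank 8 in HFD mice with 0.961 ± 0.437. *Adrb3* was lowest in every group, at 0.152 to 0.195 CPM per kilobase. In LFD mice, the neighbours *Retn* and *Cidea*, and *Lep* and *Adrb3*, changed places between mice (higher in 2 of 4), as did *Pck1* and *Cidea* in HFD mice and *Ucp1* and *Adrb3* in icosapent ethyl–treated mice.

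The RefSeq promoter windows of the 4 secreted members are shown because the ratios of *Lep*, *Retn*, and *Cfd* to *Adipoq*, described after them, did not overlap between LFD and HFD mice. Windows hold 250 bases before and 50 after the transcription start on GRCm38.p6, plus strand, and were found for 6 of the 9 genes (not for *Car3*, *Adrb3*, and *Cidea*, of which none is shown). Capitals mark matches, on either strand, of the CCAAT box, of the TATAAA box, of AGGTCA (a half-site of nuclear receptors such as PPARγ), and of TTGCNNAA (a form of the site of C/EBP proteins). The windows lie at chr16:23146286-23146585, chr6:29059971-29060270, chr8:3655520-3655819, and chr10:79890603-79890902 in the order given.
Adipoq: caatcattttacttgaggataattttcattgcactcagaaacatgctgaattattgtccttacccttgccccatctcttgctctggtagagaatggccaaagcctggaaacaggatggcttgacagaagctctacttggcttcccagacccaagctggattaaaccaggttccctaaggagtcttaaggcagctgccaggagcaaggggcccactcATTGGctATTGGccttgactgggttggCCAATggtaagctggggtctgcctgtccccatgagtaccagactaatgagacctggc
Lep: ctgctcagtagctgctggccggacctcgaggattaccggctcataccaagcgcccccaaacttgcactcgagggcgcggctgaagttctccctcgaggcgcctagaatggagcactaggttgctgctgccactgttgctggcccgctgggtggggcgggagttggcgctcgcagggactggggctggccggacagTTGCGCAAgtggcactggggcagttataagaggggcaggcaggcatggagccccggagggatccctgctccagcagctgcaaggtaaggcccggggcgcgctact
Retn: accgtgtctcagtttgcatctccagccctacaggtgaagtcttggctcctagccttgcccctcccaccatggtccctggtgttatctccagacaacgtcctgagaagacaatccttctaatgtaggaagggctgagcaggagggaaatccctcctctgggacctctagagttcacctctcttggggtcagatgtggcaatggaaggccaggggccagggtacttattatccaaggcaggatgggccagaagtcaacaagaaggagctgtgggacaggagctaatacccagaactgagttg
Cfd: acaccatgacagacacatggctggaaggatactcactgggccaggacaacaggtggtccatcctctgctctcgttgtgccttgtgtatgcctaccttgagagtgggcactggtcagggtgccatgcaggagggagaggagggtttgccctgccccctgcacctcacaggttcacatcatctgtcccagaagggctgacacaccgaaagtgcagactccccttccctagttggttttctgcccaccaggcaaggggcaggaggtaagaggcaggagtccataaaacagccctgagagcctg

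The *Adipoq* window held CCAAT on either strand at -34, -27, and -7 from the start, a motif found in 37.4% of all 32851 windows. The *Lep* window held TTGCNNAA at -55 (10.8% of all windows), and no other member window held it. The windows of *Retn*, *Cfd*, and *Pck1* held none of these 4 motifs, and that of *Ucp1* held AGGTCA at -14 (16.3% of all windows). TATAAA was in none of the 6 (13.6% of all windows). CANNTG, not capitalised, was in 5 of the 6 and in 72.3% of all windows, and its matches in *Lep* at -58 and -50 overlap that of TTGCNNAA. These are matches of letters, and say nothing of binding.

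*Lep* had the largest fitted difference between HFD and LFD mice among the 9 genes. It was at 3.28, 0.41, 0.715, and 0.421 CPM in LFD replicates 2, 5, 6, and 7, at 16.5, 9.63, 13.9, and 4.92 CPM in HFD replicates 1 to 4, and at 10.8, 4.63, 10.3, and 9.28 CPM in icosapent ethyl replicates 1 to 4. Every mouse on a HFD, with or without icosapent ethyl, was above every LFD mouse. The means were 1.21 ± 1.39, 11.2 ± 5.08, and 8.77 ± 2.83 CPM (SD, n = 4 each). The log2 fold change in HFD versus LFD mice was 3.19 ± 0.73 (SE). Its adjusted p in the quasi-likelihood test of edgeR, 0.0603, missed the threshold of 0.05. It passed with DESeq2 (adjusted p = 0.00175) and with all 12 mice in 1 fit (adjusted p = 0.035 by edgeR). Without LFD replicate 2, the LFD mouse with the highest *Lep*, it passed too (log2 fold change 4.45, adjusted p = 0.0381 by edgeR). It missed the threshold in edgeR fits with DESeq2 size factors (adjusted p = 0.0603), library totals (0.0879), no filter (0.113), or 10 counts in every mouse (0.0586). It also missed it without any other single mouse (adjusted p = 0.0584 to 0.171 by edgeR).

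*Cfd* went the other way. It was at 10.5, 12.4, 12.2, and 1.59 CPM in LFD replicates 2, 5, 6, and 7, at 2.63, 2.57, 1.58, and 1.6 CPM in HFD replicates 1 to 4, and at 5.63, 11.5, 1.43, and 2.61 CPM in icosapent ethyl replicates 1 to 4. LFD replicate 7, which had little RNA of most of these genes, fell within the range of the HFD mice, and the other 3 LFD mice were above all of them. The log2 fold change in HFD versus LFD mice was -2.14 ± 0.55 (SE, adjusted p = 0.076 by edgeR), and DESeq2 called it (adjusted p = 0.00122). Outside fat, *Cfd* is also used by macrophages. The 4 macrophage markers summed to 114.5 to 173.4 CPM in LFD mice, against 106.3 to 120.7 CPM with HFD and 108.2 to 116.2 CPM with icosapent ethyl, all 4 were counted in every mouse, and 1 of them, *Cd68*, was lower in HFD mice (log2 fold change -1.25 ± 0.17, adjusted p = 0.0376 by edgeR). Of all genes tested, 1.45% passed by edgeR in this comparison. The part of macrophages in the *Cfd* values was not tested.

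*Retn* was at 7.32, 2.48, 3.78, and 0.702 CPM in LFD replicates 2, 5, 6, and 7, at 2.35, 1.48, 1.58, and 0.661 CPM in HFD replicates 1 to 4, and at 3.06, 4.5, 1.96, and 1.88 CPM in icosapent ethyl replicates 1 to 4. HFD replicates 1 to 3 lay within the lower part of the LFD range and HFD replicate 4 below every LFD mouse, and the log2 fold change was -1.25 ± 0.63 (SE, adjusted p = 0.254 by edgeR). *Adipoq*, the gene most restricted to fat cells among the 9, was at 11.2, 3.46, 5.9, and 1.15 CPM in LFD replicates 2, 5, 6, and 7, at 11.03, 5.58, 9.56, and 4.63 CPM in HFD replicates 1 to 4, and at 11.8, 8.67, 5.38, and 9.2 CPM in icosapent ethyl replicates 1 to 4. Its ranges overlapped in all comparisons, and the log2 fold change in HFD versus LFD mice was 0.49 ± 0.59 (SE, adjusted p = 0.645 by edgeR).

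*Car3*, a cytosolic carbonic anhydrase that is among the most abundant proteins of mouse fat, was at 53.2, 16.6, 36.4, and 6.86 CPM in LFD replicates 2, 5, 6, and 7, at 55.8, 56.2, 44.2, and 19.2 CPM in HFD replicates 1 to 4, and at 74.8, 40.9, 20.6, and 36.5 CPM in icosapent ethyl replicates 1 to 4. Its order of mice followed that of *Adipoq* closely. *Car3* is also made by skeletal muscle. The 6 muscle markers, of which 4 were counted in every mouse, summed to 1.65 to 2.71 CPM in LFD, 2.24 to 2.92 CPM in HFD, and 1.43 to 2.14 CPM in icosapent ethyl–treated mice, and their part was not tested. *Pck1*, which makes phosphoenolpyruvate for glucose synthesis in the liver and for glycerol synthesis in fat, ranged from 1.36 to 7.2 CPM in LFD, 3.1 to 7.22 CPM in HFD, and 1.45 to 6.41 CPM in icosapent ethyl–treated mice. The log2 fold changes in HFD versus LFD mice were 0.62 ± 0.57 for *Car3* and 0.59 ± 0.54 for *Pck1* (SE), neither past the threshold by edgeR (adjusted p = 0.535 and 0.532).

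*Ucp1* differed most between mice of the same group. It was at 2.6, 1.4, 6.12, and 0.164 CPM in LFD replicates 2, 5, 6, and 7, at 3.62, 4.86, 0.779, and 1.55 CPM in HFD replicates 1 to 4, and at 3.57, 0.131, 0.121, and 0.994 CPM in icosapent ethyl replicates 1 to 4. The highest mouse had 50.6 times the level of the lowest. *Cidea*, a lipid droplet protein of brown and beige fat, was at 1.99, 1.64, 4.22, and 0.656 CPM in LFD replicates 2, 5, 6, and 7, at 1.68, 2.49, 0.921, and 1.16 CPM in HFD replicates 1 to 4, and at 2.01, 0.393, 0.343, and 1.03 CPM in icosapent ethyl replicates 1 to 4. It was highest and lowest in the same mice as *Ucp1*, LFD replicate 6 and icosapent ethyl replicate 3. The log2 fold changes in HFD versus LFD mice were 0.06 ± 0.85 for *Ucp1* and -0.45 ± 0.52 for *Cidea* (SE, adjusted p = 0.975 and 0.634 by edgeR). The sign turned for *Ucp1* without LFD replicate 5 (-0.15), LFD replicate 7 (-0.33), HFD replicate 1 (-0.11), or HFD replicate 2 (-0.39). It turned for *Cidea* without LFD replicate 6 (0.12).

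*Adrb3* ranged from 0.234 to 1.1 CPM in LFD, 0.274 to 0.755 CPM in HFD, and 0.363 to 0.89 CPM in icosapent ethyl–treated mice, on 10 to 58 counts per mouse. Its log2 fold change in HFD versus LFD mice was -0.38 ± 0.52 (SE, adjusted p = 0.691 by edgeR). The gene shares exon sequence with an antisense gene, *Gm45470*, on the other strand, and the counting used strand.

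In HFD versus LFD mice, 0 of the 9 genes passed edgeR's test at an adjusted p below 0.05, where 1.45% of the 15909 genes tested did. At an unadjusted p below 0.05, 2 of 9 passed (*Lep* and *Cfd*), against 24.8% of all genes, and DESeq2 called the same 2, against 11.4% of all genes. Groups did not overlap for 1 of 9 (*Lep*), against 13.6% of all genes. For 9 genes, these counts are close to what the shares of all genes give, and the median log2 fold change of the 9 was 0.06, against -0.01 for all genes. All 9 passed the filter on low counts in each comparison. The 4 markers of the stroma of fat, all counted in every mouse, summed to 137.7 to 183.5 CPM in LFD, 100.2 to 129.4 CPM in HFD, and 103.7 to 112.9 CPM in icosapent ethyl–treated mice, so that LFD mice lay above all others, and 0 of the 4 passed by edgeR. The highest sum was that of LFD replicate 7, the mouse with the lowest *Adipoq* (1.15 CPM). *Ly6a* had the highest mean of the 4, at 85.5 CPM, so the sum is no plain measure of fat. The 3 Schwann cell markers, also counted in every mouse, summed to 4.26 to 22.0 CPM, 2.85 to 7.31 CPM, and 4.2 to 8.82 CPM in the same order, with LFD replicate 2 the highest, and 0 of the 3 passed. The part of either in the values of the 9 genes was not tested.

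**Figure D2:**
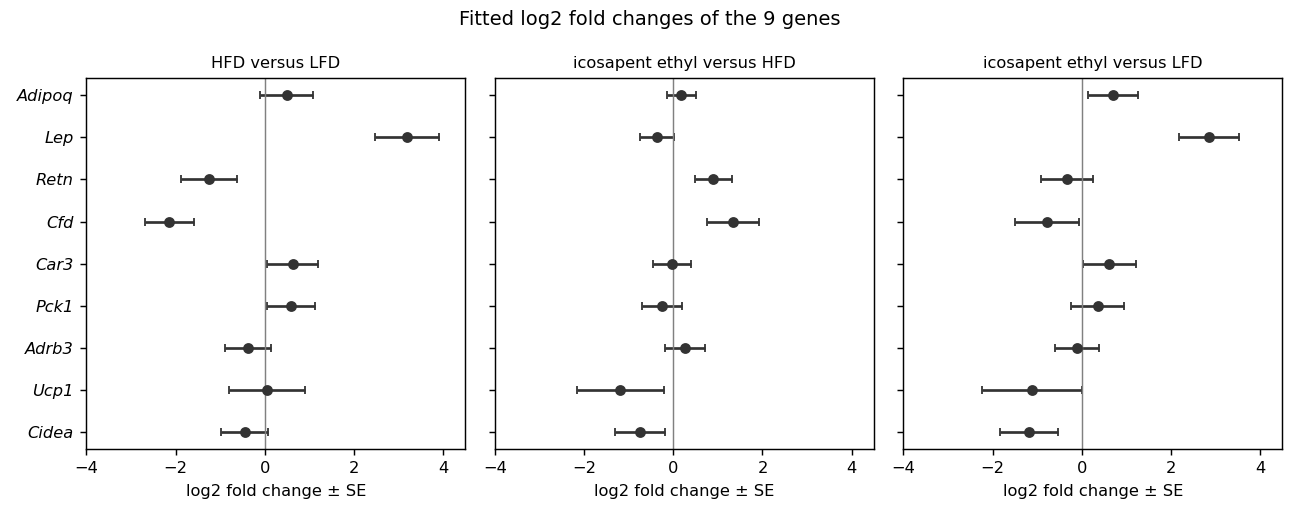
Fitted log2 fold change with its SE (bars) for the 9 genes in the 3 comparisons, from edgeR fits of 4 against 4 mice. The values for *Lep* are 3.19 and 2.85 against LFD mice, and the other genes lie between -2.14 and 1.33 in all 3 comparisons, *Lep* in icosapent ethyl–treated versus HFD mice at -0.36 included.

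To compare the genes relative to *Adipoq*, each was divided by *Adipoq* in the same mouse. Whether *Adipoq* RNA per fat cell was alike in all groups was not tested. A difference in a ratio can therefore come from either of its 2 genes. On this scale the LFD mice lay close together for *Retn*. The ratio was 0.654, 0.719, 0.64, and 0.612 in LFD replicates 2, 5, 6, and 7, although their *Retn* levels differed by a factor of 10.4. It was 0.213, 0.265, 0.165, and 0.143 in HFD replicates 1 to 4, all below the LFD mice. The mean log2 ratio was lower by 1.71, or 0.305 times, in HFD mice. The *Lep* ratio was 0.293, 0.119, 0.121, and 0.367 in LFD replicates 2, 5, 6, and 7 and 1.5, 1.73, 1.46, and 1.06 in HFD replicates 1 to 4, a factor of 6.34 between the means on the log scale, again without overlap. The *Cfd* ratio was 0.937, 3.59, 2.07, and 1.39 in LFD and 0.238, 0.46, 0.165, and 0.345 in HFD mice, in the same order of replicates, or 0.167 times.

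In HFD versus LFD mice, 4 of the 8 ratios did not overlap, where the ratio to *Adipoq* did not for 6.42% of all genes tested. A gene that does not follow *Adipoq* takes the spread of *Adipoq* into its ratio, which favours overlap. The share of all genes is therefore no like measure for genes that follow *Adipoq*, here and in the other comparisons. The 4 ratios without overlap were those of *Lep* (higher) and *Retn*, *Cfd*, and *Adrb3* (lower). Each had an exact two-sided permutation p of 0.0286, the smallest that 4 against 4 mice allow, and an adjusted p of 0.098 over the 24 ratios of the 3 comparisons, so that none passed after adjustment. The 4 share their denominator and are not independent of each other. The ratios of *Car3* and *Pck1* were nearly level between diets, with differences in mean log2 ratio of 0.08 and 0.0011 (exact permutation p = 0.914 and 1.0), that of *Cidea* differed by -1.07 (exact permutation p = 0.143) and that of *Ucp1* by -0.31 (exact permutation p = 0.771). Relative to the mean of 4 other fat genes (*Plin1*, *Cidec*, *Adig*, and *Acvr1c*), the *Lep* and *Cfd* ratios still did not overlap, and those of *Retn* (-1.36, exact permutation p = 0.0571) and *Adrb3* (-0.69, exact permutation p = 0.114) did. In LFD mice, *Plin1* lay at 125.1 to 200.8 CPM, whereas *Adipoq* ran from 1.15 to 11.2 CPM. The other 3 spread more widely there than *Plin1*. *Cidec* ran from 1.05 to 8.04 CPM, *Adig* from 0.0468 to 1.01 CPM, and *Acvr1c* from 12.2 to 94.7 CPM. How far this reference follows the amount of fat RNA, and the part of cortex cells in it, were not tested. With a pseudocount of 1 CPM, the *Adrb3* ratios overlapped as well (-0.75, exact permutation p = 0.0857).

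**Figure D3:**
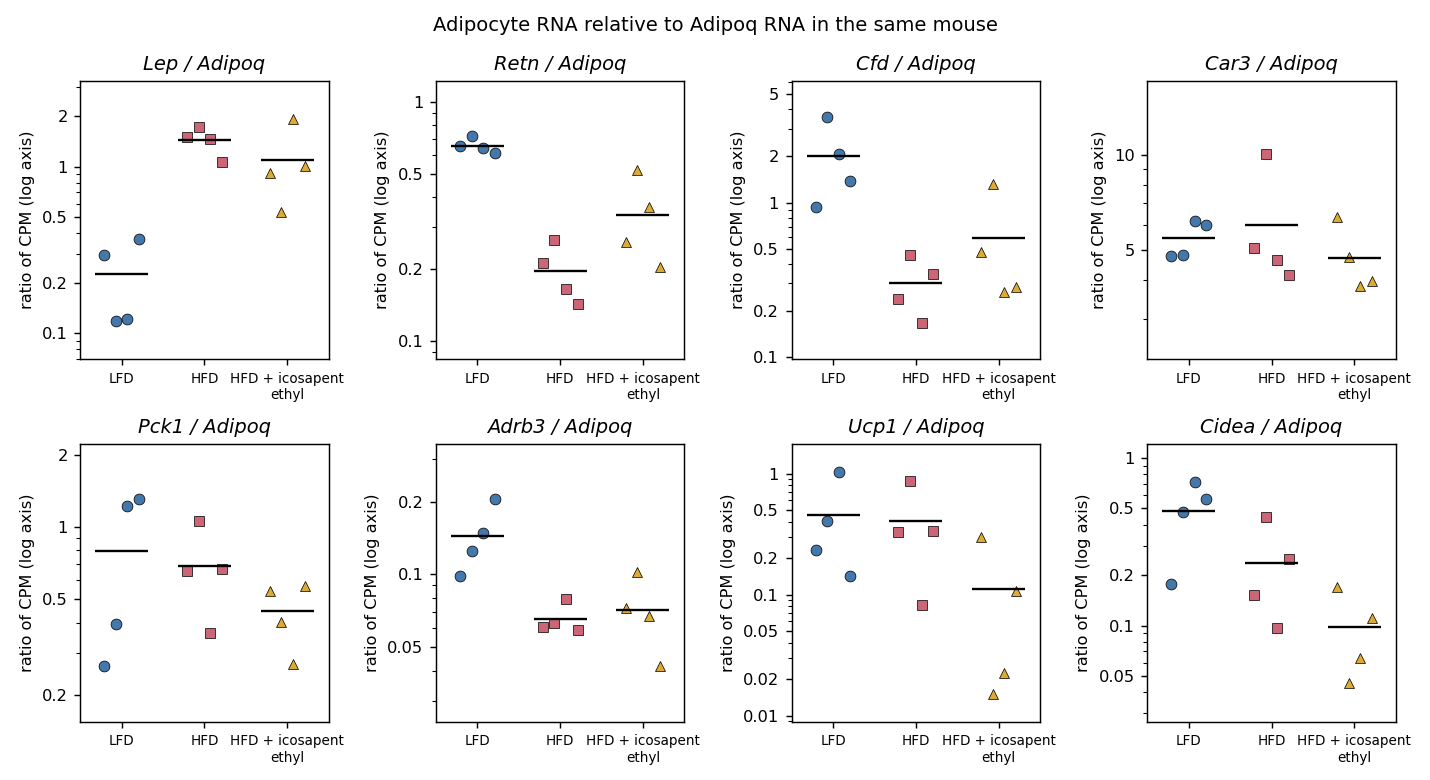
Ratio of the CPM of 8 genes to that of *Adipoq* in the same mouse, on log axes. Points are mice, in the order of their replicate numbers, and lines are group means of the ratio (n = 4). LFD mice lie between 0.612 and 0.719 for *Retn* and at or below 0.367 for *Lep*, apart from HFD mice at 0.143 to 0.265 and 1.06 to 1.73.

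Since *Lep* and *Retn* moved apart, their ratio was also taken directly, a choice made after the values were seen and given without a test. The ratio of *Lep* to *Retn* was 0.448, 0.165, 0.189, and 0.6 in LFD replicates 2, 5, 6, and 7. It was 7.03, 6.51, 8.81, and 7.45 in HFD replicates 1 to 4. It was 3.54, 1.03, 5.29, and 4.95 in icosapent ethyl replicates 1 to 4, between both other groups and overlapping neither. It is 1 of the 36 pairs that the 9 genes form. Of these pairs, 18 did not overlap in HFD versus LFD mice and 12 in icosapent ethyl–treated versus LFD mice. In icosapent ethyl–treated versus HFD mice 2 did not, this pair among them. The pairs share genes and are not independent. Their counts were not set against the share over all pairs of genes, and no conclusion is drawn from them.

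Whether icosapent ethyl altered these RNAs in mice on a HFD was asked by comparing the treated with the untreated HFD mice. By edgeR, 0 of the 9 genes passed at an adjusted p below 0.05, as did 0.0% of 15913 genes. DESeq2 called 0 of 9 (0.0268% of all genes), and 1 of 9, *Cfd*, had an unadjusted p below 0.05 by edgeR (1.39% of all genes). Groups overlapped for all 9, against 1.09% of genes without overlap, and the adjusted p of each was 0.9997 by edgeR. Fitted log2 fold changes were 1.33 ± 0.58 for *Cfd*, 0.90 ± 0.42 for *Retn*, 0.18 ± 0.33 for *Adipoq*, -0.36 ± 0.39 for *Lep*, -0.74 ± 0.56 for *Cidea*, and -1.19 ± 0.98 for *Ucp1* (SE). *Car3*, *Pck1*, and *Adrb3* lay between -0.25 and 0.26. With the replicate number as a block, the values were 0.996 for *Cfd* and -1.66 for *Ucp1*, and the count of genes that passed was 0 as well.

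The higher mean of *Cfd* in treated mice came from replicates 1 and 2, at 5.63 and 11.5 CPM, while replicates 3 and 4 lay within or close to the HFD range of 1.58 to 2.63 CPM. The same replicates 1 and 2 had the highest mesothelium markers, which summed to 36.0 and 29.8 CPM, against 14.2 and 21.2 CPM in replicates 3 and 4 and 13.1 to 21.6 CPM in HFD mice (9.48 to 15.8 CPM in LFD mice, 5 of the 6 markers counted in every mouse). The sum does not stand for each marker. With icosapent ethyl, 5 of the 6 markers had a positive log2 fold change versus HFD mice and 1 a negative one, and 0 passed by edgeR. The negative one was *Lrrn4*, with means of 13.9 CPM in HFD and 11.2 CPM in treated mice. *Upk3b* was at 1.94 to 14.4 CPM in treated mice, against 0.433 to 1.15 CPM in HFD mice. The part of the mesothelium in the *Cfd* values was not tested. Replicate 4 stood out for hepatocyte markers, which summed to 14.1 CPM and to no more than 1.65 CPM in any other mouse (0 of the 4 markers were counted in every mouse), and *Pck1*, also a liver gene, was at 5.21 CPM there. Its part was not tested. None of the 8 ratios to *Adipoq* was without overlap in this comparison (0.119% of all genes were), the largest differences being -1.98 for *Ucp1* and -1.10 for *Cidea* on the log2 scale (exact permutation p = 0.143 each).

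In icosapent ethyl–treated versus LFD mice, a comparison that shares its LFD mice with the first, 0 of 9 passed edgeR's test at an adjusted p below 0.05, as did 0.0% of 15935 genes. *Lep* alone had an unadjusted p below 0.05 by edgeR (14.0% of all genes), was called by DESeq2 (adjusted p = 0.000608, 2.58% of all genes called), and had groups without overlap (7.73% of all genes). Its log2 fold change was 2.85 ± 0.67 (SE, adjusted p = 0.19 by edgeR). The next in size were *Cidea* at -1.18 ± 0.65 and *Ucp1* at -1.12 ± 1.12 (adjusted p = 0.431 and 0.67 by edgeR). Relative to *Adipoq*, 3 of 8 ratios did not overlap, against 2.98% of all genes: *Lep*, higher by 2.15 on the log2 scale, *Retn*, lower by 1.04, and *Cidea*, lower by 2.17 (exact permutation p = 0.0286 each, adjusted p = 0.098). For *Cidea* the gap was small, with 0.178 in LFD replicate 2 and 0.17 in icosapent ethyl replicate 1. The *Lep* ratios overlapped with a pseudocount of 1 CPM (1.43, exact permutation p = 0.0571), and relative to the 4 other fat genes those of *Retn* (-0.27, exact permutation p = 0.686) and *Cidea* (-1.40, exact permutation p = 0.0571) did.

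Across the 12 mice, the level of *Adipoq* was compared with that of each of the other 8 genes on the log2 scale. *Car3* followed it most closely, with r = 0.921 (permutation p = 0.00012, adjusted over 8 genes 0.00096) and rho = 0.839 (permutation p = 0.00114, adjusted 0.00912). *Adrb3* (r = 0.731, permutation p = 0.00293, adjusted 0.0117; rho = 0.713, permutation p = 0.0122, adjusted 0.0488) was next. *Lep* (r = 0.719, adjusted permutation p = 0.0191), *Pck1* (r = 0.636, adjusted permutation p = 0.0402), and *Retn* (r = 0.625, adjusted permutation p = 0.0496) passed by r but not by rho (0.58, 0.58, and 0.531, adjusted permutation p = 0.107, 0.107, and 0.128). *Ucp1* (r = 0.391, rho = 0.322), *Cfd* (r = 0.245, rho = 0.196), and *Cidea* (r = 0.213, rho = 0.336) did not pass (adjusted permutation p of r = 0.281, 0.51, and 0.51). Without LFD replicates 5 and 7, the 2 mice farthest from the median of *Adipoq*, 0 of 8 passed, with r = 0.749 for *Car3*, 0.695 for *Adrb3*, and 0.317 for *Lep*, so that the relations rest in part on these mice.

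With the group means removed, so that diet no longer entered, *Retn* joined *Car3* and *Adrb3*. The correlations with *Adipoq* were then 0.911 for *Car3*, 0.909 for *Retn*, and 0.888 for *Adrb3* (adjusted permutation p = 0.0058, 0.00723, and 0.0058, with mice permuted within groups), and rho was 0.839, 0.811, and 0.804 (adjusted permutation p = 0.0229 each). *Lep* was at 0.741 (rho = 0.65), *Cfd* at 0.665 (rho = 0.517), *Ucp1* at 0.629 (rho = 0.671), *Pck1* at 0.598 (rho = 0.727), and *Cidea* at 0.571 (rho = 0.601), none past the threshold for r, whereas *Pck1* passed by rho (adjusted permutation p = 0.0405). *Ucp1* and *Cidea* were a pair taken after the values were seen. They had r = 0.96 and rho = 0.972 over the 12 mice (permutation p = 1e-05 each, the smallest that the resamples can give). This p takes no account of the choice of the pair. Their r was 0.922 without the 2 mice farthest from the median of *Ucp1*, and 0.989 within groups.

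**Figure D4:**
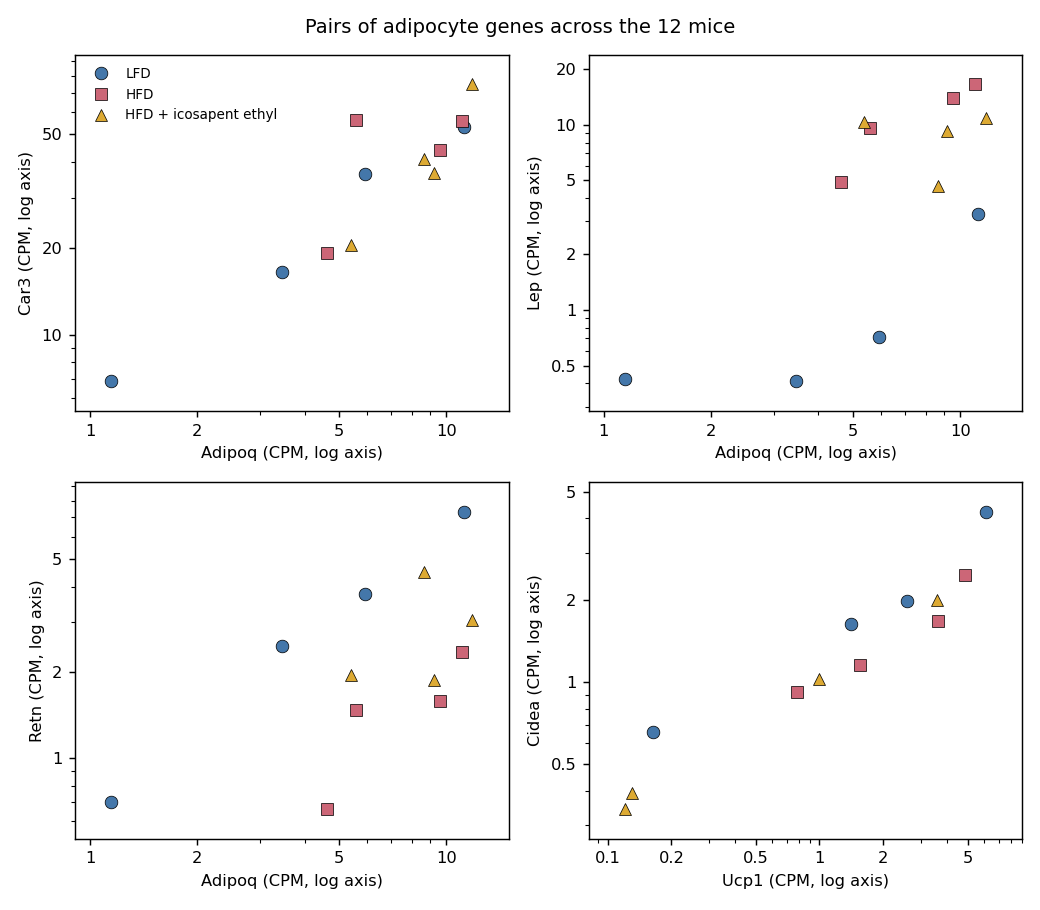
Level of *Car3*, *Lep*, and *Retn* against *Adipoq*, and of *Cidea* against *Ucp1*, in each of the 12 mice, in CPM on log axes. *Car3* follows *Adipoq* in all groups (r = 0.921), LFD mice lie below the others for *Lep* and HFD mice lie below LFD mice of like *Adipoq* for *Retn*, and *Cidea* follows *Ucp1* (r = 0.96).

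Among 13475 genes with a mean of at least 1 CPM, with the 9 genes themselves left out of the ranking, the 10 whose log2 CPM had the highest r with *Adipoq* over the 12 mice were *Tmem45b* (0.944), *Ces1d* (0.921), *Cidec* (0.885), *Hp* (0.876), *Mmd* (0.828), *Atad5* (0.819), *Gm17690* (0.814), *Zfp974* (0.813), *Chac2* (0.806), and *Map2k7* (0.803). *Cidec* encodes a lipid droplet protein of adipocytes, *Ces1d* a carboxylesterase that acts on triglycerides, and *Hp* haptoglobin, made by liver and fat. Their rho was 0.839, 0.825, 0.811, and 0.608 for *Tmem45b*, *Ces1d*, *Cidec*, and *Hp*, and 0.587 to 0.86 for the others. Without icosapent ethyl replicate 1, which had the highest *Adipoq*, the 10 values ran from 0.784 to 0.941. Over the 12 mice, *Cidec* ranged from 1.05 to 16.6 CPM and *Hp* from 1.97 to 17.3 CPM, and *Mmd* and *Map2k7* lay between 24.1 and 38.2 CPM. For *Ucp1*, the 5 highest were *4732471J01Rik* (0.759), *Ints11* (0.759), *Gskip* (0.73), *C130013H08Rik* (0.728), and *Mcrip1* (0.727), with rho from 0.65 to 0.839 and, without LFD replicate 6, r from 0.723 to 0.838. These 5 values lie below the r of 0.96 of *Cidea*, and the genes are ranked by the value given, which carries no test. For neither ranking was r taken without the mouse lowest in the gene, LFD replicate 7 for *Adipoq* and icosapent ethyl replicate 3 for *Ucp1*. How far the values rest on these mice was not tested.

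Other fat genes were taken from lists. Of 20 further genes used by adipocytes, 2 were higher in HFD than in LFD mice, 0 lower, and 18 did not pass. Of all genes tested, 1.45% passed by edgeR. The median log2 fold change of the 20 was 0.13, against -0.01 for all genes. The 2 were hormone-sensitive lipase (*Lipe*, log2 fold change 0.88 ± 0.10, adjusted p = 0.0293 by edgeR) and the droplet protein *Plin4* (1.29 ± 0.23, adjusted p = 0.04 by edgeR), and for both the groups did not overlap. The most abundant of the 20 were *Cd36*, *Plin1*, and *Pnpla2*, with means of 189.9, 169.3, and 168.3 CPM, and fitted values of 1.004, 0.31, and 0.33 that did not pass. *Lipe*, *Cd36*, and *Pnpla2* had means of 55.5, 120.1, and 144.1 CPM in LFD mice, where *Adipoq* had a mean of 5.42 CPM. These genes are also used by cells of the cortex, which store and break down lipid esters. The part of cortex cells in their values was not tested.

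Of 15 genes tied to brown fat, 12 could be tested in HFD versus LFD mice, of which 0 were higher, 1 lower, and 11 did not pass (median log2 fold change -0.12). The 1 was *Fabp3*, a carrier of fatty acids in heart, muscle, and brown fat, with means of 8.28 CPM (LFD) and 2.9 CPM (HFD) (log2 fold change -1.52 ± 0.26, adjusted p = 0.0398 by edgeR). The study names *Fabp3*, with *Lipe* and *Plin4*, among the genes that were higher in HFD mice. The direction here was the same for *Lipe* and *Plin4* and the opposite for *Fabp3*, and the reason was not tested. *Kcnk3* was the most abundant, at a mean of 2275 CPM, and encodes a potassium channel that the cortex uses itself, followed by *Pdk4* at 8.61 CPM and *Cox8b* at 8.45 CPM. *Cpt1b* and *Zic1* were at or near 0. Of 10 receptors and partners of these secreted proteins, 9 could be tested and 0 passed. The adiponectin receptors *Adipor1* and *Adipor2* had means of 255.4 and 135.0 CPM and their adaptor *Appl1* 128.2 CPM, and the leptin receptor *Lepr* had 13.1 CPM. Of 4 other enzymes of glucose synthesis, 0 passed, with *Pcx* at 428.9, *Pck2* at 49.0, and *G6pc* at 1.65 CPM. In both icosapent ethyl comparisons, 0 genes of these 4 lists passed edgeR's test.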

How the data were processed

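RNA of the adrenal cortex was measured in 12 mice, 4 per group, and groups were taken from the labels. The authors trimmed the reads with cutadapt, aligned them to GRCm38 with STAR, counted them per gene of GENCODE M12 with HTSeq 0.6.1p1 in reverse-strand mode, and deposited raw read counts. Symbols and exon lengths came from GENCODE M21. Counts were normalized by TMM, filtered with filterByExpr (at least 10 counts), and fitted with the robust quasi-likelihood model of edgeR 4.0.16 (R 4.3.3) for the 8 mice of each comparison, without covariates. Calls were made at a Benjamini-Hochberg adjusted p below 0.05. DESeq2 1.42.0 was an alternative. Ratios used log2 of CPM plus 0.1 and exact two-sided permutation tests (scipy 1.17.1), and correlations 100000 permutations. The procedure was tested on simulated data.

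The genes and lists were chosen with earlier results of these data known. Named were all 9 genes in every mouse, of each list the genes called and the 3 most abundant, and the genes most like *Adipoq* and *Ucp1*; *Lepr*, *Cpt1b*, *Zic1*, *Umod*, and *Kap* were added after their values were seen. Deviations of HFD and icosapent ethyl mice with the same number from their group means correlated at 0.252, 0.12, 0.356, and 0.656, all over 0.1, so the number was also used as a block. For 3 of the 4 HFD mice, the highest correlation was with an icosapent ethyl mouse of another number (0.619, 0.473, and 0.388). LFD mice share only 1 number with them. Nothing states whether cages or litters were shared, so p-values measure the spread between these mice.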

Additional observations from a re-analysis of the deposited data

Results flagged for a closer look

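One value stood apart from the rest of its group. *Lep* in LFD replicate 2 was at 3.28 CPM, and its gap to the next LFD mouse was 0.894 of the range of the 4 mice (Dixon's 95% criterion). Of 51 groups of 4 tested (9 levels and 8 ratios to *Adipoq* in 3 groups), this was the only 1 so marked, and chance marks about 1 in 20. The same mouse also had the highest *Adipoq*, *Retn*, *Car3*, and *Adrb3* of the LFD group, and its *Lep* to *Adipoq* ratio of 0.293 lay within the 0.119 to 0.367 of the LFD mice.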

How the results depend on the processing

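The counts of genes that passed were 0 under all alternatives in icosapent ethyl–treated versus HFD mice, replicate block included. In HFD versus LFD mice the count of 0 became 2 at a threshold of 0.1, 2 with DESeq2's Wald test, 1 with all 12 mice in 1 fit, and 0 to 1 when single mice were left out. In icosapent ethyl–treated versus LFD mice it became 1 with DESeq2 and stayed 0 when single mice were left out. Ratios to *Adipoq* without overlap numbered 4 in HFD versus LFD mice (2 with the reference of 4 other genes, 3 with a pseudocount of 1 CPM, 4 to 5 without single mice), 3 in icosapent ethyl–treated versus LFD mice (1 with that reference, 2 with a pseudocount of 1 CPM, 3 to 5 without single mice, 7 without the 2 treated mice with the highest mesothelium markers, left out after the data were seen and also the 2 highest of their group in *Cfd*) and 0 in icosapent ethyl–treated versus HFD mice (0 to 2 without single mice, 1 without those 2). Leaving out mice can only take overlap away, so these ratio counts could rise but not fall. The rise to 7 was not set against the share of all genes, and no conclusion is drawn from it. Correlations with *Adipoq* that passed numbered 5, but 0 without the 2 farthest mice, 3 on deviations from group means, 3 with a pseudocount of 1 CPM, and 1 to 5 without single mice, with 1 left without LFD replicate 7. The block changed no call. The cause of these changes was not tested.

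The signs of some values turned. The log2 fold change of *Car3* in icosapent ethyl–treated versus HFD mice became 0.0212 with library totals and ran from -0.42 to 0.21 without single mice, and those of *Adipoq* and *Pck1* ran from -0.00037 to 0.40 and from -0.53 to 0.0346. In HFD versus LFD mice, *Ucp1* ran from -0.39 to 0.95 and *Cidea* from -0.77 to 0.12 without single mice, and in icosapent ethyl–treated versus LFD mice, *Retn* from -0.66 to 0.29 and *Adrb3* from -0.38 to 0.26. Among log2 ratios to *Adipoq* in HFD versus LFD mice, *Ucp1* became 0.0431 with the other reference and *Pck1* -0.0263 with a pseudocount of 1, and without single mice *Car3* ran from -0.20 to 0.22, *Pck1* from -0.42 to 0.33, and *Ucp1* from -0.81 to 0.28. In icosapent ethyl–treated versus HFD mice, *Car3* became 0.14 with the other reference and ran from -0.43 to 0.0069 without single mice, and *Adrb3* became -0.10 with a pseudocount of 1 and -0.25 without the 2 mice with high mesothelium markers, and ran from -0.15 to 0.22 without single mice, and *Cfd* became -0.0286 without those 2. In icosapent ethyl–treated versus LFD mice, *Car3* became 0.57 and *Pck1* 0.20 with the other reference. Depth limited *Adrb3* and *Ucp1*, with 10 to 58 and 5 to 274 counts per mouse.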
